A study of Homo sapiens with 18 samples.

Results

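The 9 genes described here encode the IL6 and STAT3 signalling circuit: the ligands IL6 and LIF, the receptor chains IL6R, IL6ST and OSMR, the kinases JAK1 and JAK2, the transcription factor STAT3 and its feedback inhibitor SOCS3. They were chosen by name from the pathway, with earlier results of these data known, and they are 9 of the 23604 gene entries listed in at least 1 RNA-Seq library. The study asked how cells before and after oncogenic transformation respond when the transcription factor TFIIH is affected by triptolide (TPL), a compound that binds its XPB subunit. The cells were MCF10A-Er-Src, a human breast epithelial line with a v-Src transgene that tamoxifen switches on. Non-treated (NT) and tamoxifen-treated (TAM, 2 µM) cells were incubated for 4 h with DMSO or 0.125 µM TPL, giving the conditions NT, NT+TPL, TAM and TAM+TPL. Each condition had 2 RNA-Seq libraries from independent biological replicates and 2 RNA polymerase II (RNAPII) ChIP-Seq samples, with 1 peak list per condition. All 4 conditions come from a single line carrying the same transgene, so tamoxifen and v-Src activity cannot be told apart.

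IL6 is a secreted cytokine that binds IL6R and then IL6ST (gp130), the chain that carries the signal for the whole IL6 family. LIF uses IL6ST together with LIFR, and OSMR pairs with IL6ST to receive oncostatin M. The bound receptors activate JAK1 and JAK2, which phosphorylate STAT3. Phosphorylated STAT3 enters the nucleus and switches on target genes, among them SOCS3, whose protein binds IL6ST and the JAKs and shuts the signal off. In this cell model the loop is known for carrying the transformed state, in which NF-kB raises IL6 and IL6 keeps STAT3 active.

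The bases just upstream of IL6 are shown first, since IL6 is the ligand that starts the circuit and its transcript was found almost only in TAM cells. They were read from hg19 upstream of the main transcription start site (TSS), 5′ to 3′ on the strand of the gene, in a window of at most 250 bases that leaves out the exons of the gene. Capitals mark matches to the motifs searched, on both strands, namely the STAT letters TTCNNNGAA, the AP-1 letters TGANTCA, the C/EBP letters TTGCNNAA and the NF-kB consensus, and on the strand of the gene only the TATA letters TATAAA. The window is chr7:22766569-22766765 (plus strand).
IL6: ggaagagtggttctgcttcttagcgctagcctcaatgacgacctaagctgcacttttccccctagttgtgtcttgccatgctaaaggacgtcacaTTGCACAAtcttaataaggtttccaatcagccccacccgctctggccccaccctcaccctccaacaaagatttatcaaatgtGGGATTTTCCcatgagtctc
The IL6 window held a C/EBP match from -155 to -148 and an NF-kB match from -73 to -64, counted from the TSS. No match to the other letters searched lay in the 250 bases upstream of IL6. Of 19856 protein-coding promoters of 250 bases, 5.68% held the STAT letters, 7.12% C/EBP, 5.87% the NF-kB consensus, 6.82% TATA and 4.7% AP-1. The 250 bases upstream were 47.6% G or C in IL6, beside a median of 63.2% over all promoters. A match describes letters and not a bound site.

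The libraries held between 7461309 and 8349448 estimated counts. All 10 epithelial markers had a mean of at least 1 FPKM (fragments scaled to transcript length and to library size), and their summed level was 17500 to 19300 FPKM in NT, 11200 to 14200 in NT+TPL, 8020 to 8350 in TAM and 4310 to 4700 in TAM+TPL. None of 4 endothelial markers reached 1 FPKM, 2 of 5 fibroblast markers did, and 4 of 6 leukocyte markers did, the last summing to 75.4 to 90.3, 141.0 to 142.0, 306.0 to 331.0 and 459.0 to 520.0 FPKM in the same order. The T cell marker CD3E was near 0. The markers of a list did not move as one. KRT5 and KRT17, keratins of basal cells, had 6249.55 and 5776.13 and 7283.68 and 6144.11 FPKM in NT against 1308.36 and 1307.94 and 1553.61 and 1407.53 in TAM. They carried most of the epithelial sum in NT cells but not in TAM cells. KRT6A was the highest of the 10 in TAM, with 4062.49 and 4623.26 FPKM, against 4101.44 and 3969.42 in NT. The surface protein EPCAM had 25.12 and 24.16 FPKM in NT against 35.65 and 43.01 in TAM. CD68, a lysosomal protein, had 47.20 and 47.06 FPKM in NT against 301.14 and 280.55 in TAM and carried most of the leukocyte sum in TAM cells. CD14 had 10.94 and 9.18 FPKM in NT against 7.57 and 6.80 in TAM, and PTPRC, the pan-leukocyte protein CD45, stayed between 0.16 and 2.14 FPKM in all 8 libraries. These levels moved with the conditions, as the genes below did, and their part in the results was not tested. In bulk RNA, fewer cells of a type and less RNA per cell cannot be told apart. No spike-in was used here, so every level is relative to the library.

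IL6 transcripts were found almost only in TAM cells without TPL. The 2 TAM libraries had 29 and 22 counts (2.93 and 2.23 FPKM). NT had 0 and 1 counts, NT+TPL had 0 and 0, and TAM+TPL had 0 and 1. Thus both TAM libraries stood above all 6 others, which held 2 counts in all. TAM exceeded NT by a count ratio of 50.1 and TAM+TPL by a ratio of 49.4, with 95% intervals of 8.59 to 2020 and 8.48 to 1990 that cover counting error only. The groups were compared with edgeR's quasi-likelihood test over all 16948 genes that passed a filter on low counts, which IL6 passed only through its TAM libraries. A gene kept by its high group alone had to differ, so its p-values are given as a description and IL6 is left out of the counts of genes that rose or fell. They were 0.0251 for TPL in TAM cells and 0.072 for TAM against NT (edgeR adjusted p), and the former ran from 0.0817 to 0.134 when any 1 TAM or TAM+TPL library was left out.

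A second IL6 entry, listed by RefSeq accession, had 4 counts in TAM+TPL replicate 1 and 0 in the other 7 libraries. With both entries summed, TAM had 51 counts against 5 in TAM+TPL, a ratio of 9.89 (95% counting interval 3.97 to 31.7). The test over entries summed per symbol, chosen after seeing the data, then gave an edgeR adjusted p of 0.0101 for TPL in TAM cells and of 0.00774 for TAM against NT. These too are given as a description, since the summed IL6 counts are high in the TAM libraries alone. Summing left the IL6 counts of NT and TAM as they were. IL6 also stood out among the 9 by the density in its 3′ UTR of ATTTA, a motif known from short-lived cytokine transcripts. It held 6 copies in 425 bases, or 14.1 per kilobase, a density exceeded by 0.354% of 18343 genes. By number of copies IL6ST (23), JAK2 (12), OSMR (8) and LIF (7) held more, in longer 3′ UTRs. IL6 held 0 copies of the longer element TTATTTATT.

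LIF, a ligand that signals through IL6ST and LIFR, behaved differently from IL6 and was highest in NT cells. Its level was 3.62 and 5.49 FPKM in NT against 0.49 and 0.33 in NT+TPL, and 1.19 and 1.62 in TAM against 0.56 and 0.06 in TAM+TPL. The NT libraries stood above all others, the TAM libraries came next, and the ranges of the TPL-treated groups overlapped. In counts this was 117 and 179 against 15 and 10 in NT cells, and 40 and 53 against 17 and 2 in TAM cells. LIF fell with TPL in NT cells by 3.48 on the log2 scale (SE 0.797, edgeR adjusted p = 0.0153). Without NT replicate 2 the adjusted p became 0.0744 and without NT+TPL replicate 2 it became 0.0719 (both edgeR). In TAM cells the log2 fold change was -2.19 (SE 0.79, edgeR adjusted p = 0.0721), and TAM against NT gave -1.69 (SE 0.725, edgeR adjusted p = 0.255). With entries summed per symbol, a setting chosen after seeing the data, the adjusted p of these last became 0.0122 and 0.0434 by edgeR. LIF has no second entry, so its own counts were the same in that fit. DESeq2 gave adjusted p-values of 0.00736 and 0.0617. The LIF 3′ UTR holds 2 copies of the longer element TTATTTATT, which 2.1% of genes equal or exceed, and OSMR also holds 2.

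**Figure D1:**
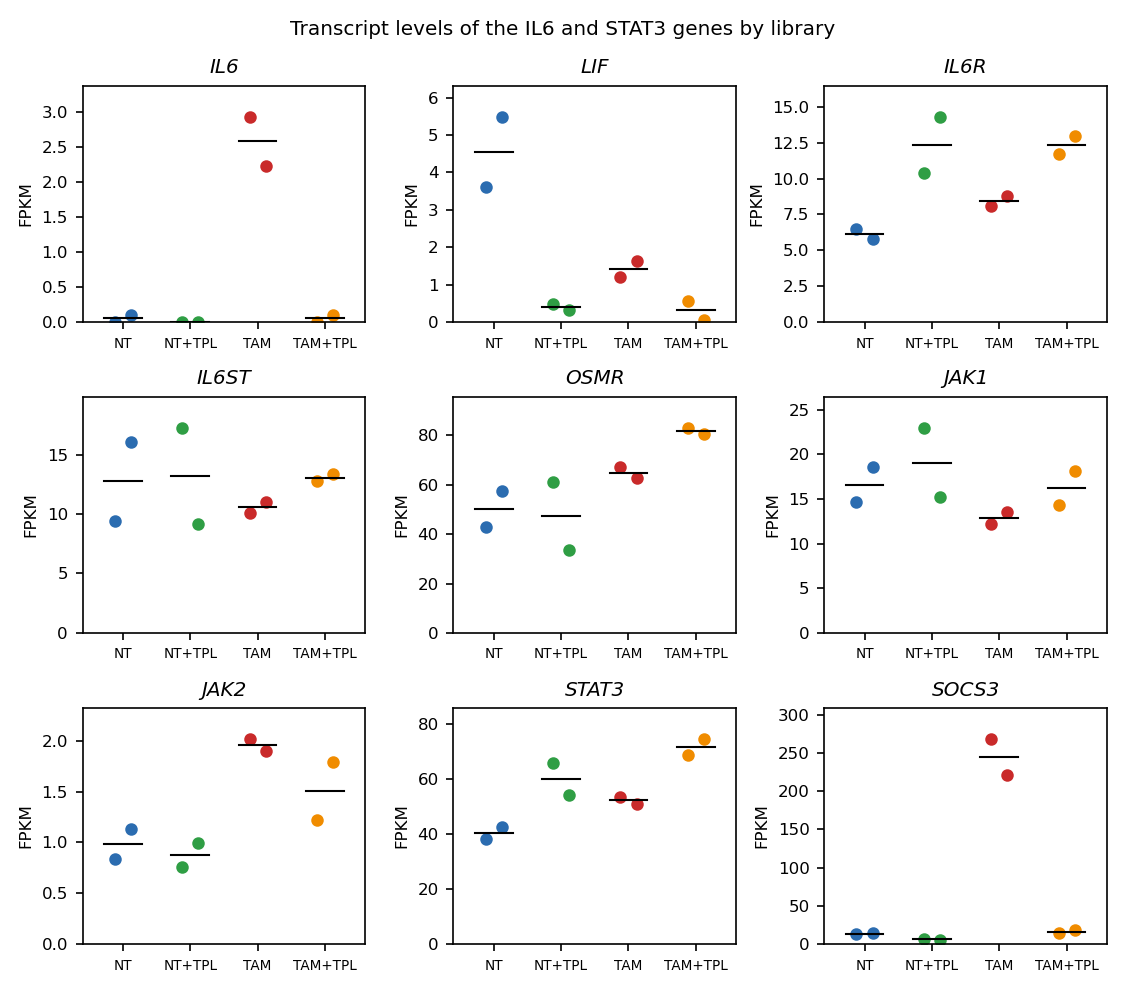
Level of each of the 9 genes in FPKM (vertical axis, from 0, scaled per gene) in the 4 conditions. Each point is 1 of the 2 libraries of a condition and each bar their mean. IL6 and SOCS3 stand high in TAM alone (2.93 and 2.23 FPKM for IL6, 268.49 and 221.65 for SOCS3), LIF in NT, and STAT3 is lowest in NT.

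Of the receptor chains IL6R, IL6ST and OSMR, IL6R alone passed the test, with TPL in NT cells. IL6R, the chain that binds IL6 itself, had 6.48 and 5.80 FPKM in NT and 10.39 and 14.31 in NT+TPL, with no overlap. It had 8.10 and 8.80 FPKM in TAM against 11.70 and 12.98 in TAM+TPL. The highest levels were thus those of the TPL-treated cells, whose ranges overlapped each other, and NT was the lowest. IL6R rose with TPL in NT cells by a log2 fold change of 1.09 (SE 0.199, edgeR adjusted p = 0.00668). That call was lost with GAPDH as the reference (edgeR adjusted p = 0.0549) and without NT replicate 2 (0.0533). In TAM cells the log2 fold change in counts was 0.30 (SE 0.195, edgeR adjusted p = 0.275). TAM against NT gave 0.76 (SE 0.199, edgeR adjusted p = 0.077). By DESeq2 the adjusted p was 0.00471, and with entries summed per symbol, chosen after seeing the data, it was 0.0368 by edgeR. IL6R has no second entry, so its own counts were the same in that fit. The difference between the TPL effects in TAM and NT cells was -0.79 (SE 0.278, edgeR adjusted p = 0.39).

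IL6R has 3 listed transcripts, and their abundance-weighted mean length differed between conditions. FPKM divides by this length and the counts do not. The mean length was 3489 to 3576 bases in NT, 3697 to 3808 in NT+TPL, 4141 to 4443 in TAM and 3684 to 3770 in TAM+TPL. TAM stood above the other conditions and NT below them. OSMR, with 2 listed transcripts, had 5166 to 5180 bases in NT, 5180 to 5301 in NT+TPL, 4667 to 4706 in TAM and 3980 to 4503 in TAM+TPL. Here the TAM cells, with or without TPL, had the shorter mean. The lengths rest on RSEM's split of reads among transcripts and were not tested.

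**Figure D2:**
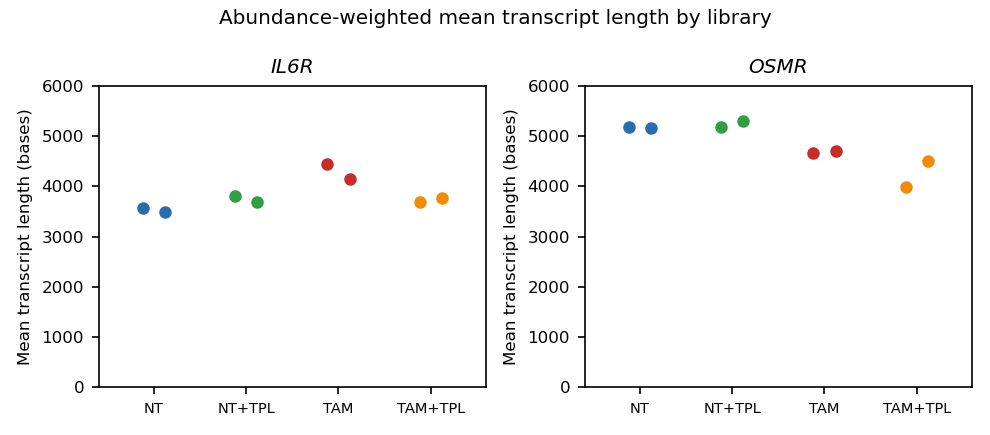
Abundance-weighted mean transcript length in bases (vertical axis, from 0) of IL6R (left) and OSMR (right) in each of the 8 libraries, 1 point per library. IL6R is longest in TAM (4141 to 4443 bases) and OSMR shortest in TAM+TPL (3980 to 4503 bases).

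IL6ST, the shared signalling chain, had 9.41 and 16.08 FPKM in NT against 17.26 and 9.19 in NT+TPL, and 10.06 and 11.05 in TAM against 12.81 and 13.33 in TAM+TPL. The replicates of NT, and those of NT+TPL, lay farther apart than the means of any pair of conditions. OSMR, the oncostatin M receptor chain, was the receptor with the highest level, with 43.07 and 57.48 FPKM in NT against 60.97 and 33.71 in NT+TPL, and 67.07 and 62.57 in TAM against 83.05 and 80.71 in TAM+TPL. Its TAM+TPL libraries stood above all others in FPKM, yet the log2 fold change in counts for TPL in TAM cells was 0.14 (SE 0.253, edgeR adjusted p = 0.687). Neither IL6ST nor OSMR passed the test in any of the 5 comparisons.

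The kinases did not pass either. JAK1, the main kinase of the IL6ST complex, had 14.68 and 18.57 FPKM in NT against 22.99 and 15.18 in NT+TPL, and 12.23 and 13.60 in TAM against 14.39 and 18.20 in TAM+TPL. JAK2 was low, at 0.84 and 1.13 FPKM in NT against 0.76 and 0.99 in NT+TPL, and 2.02 and 1.90 in TAM against 1.22 and 1.79 in TAM+TPL. Both TAM libraries stood above the other 6 for JAK2, with a log2 fold change of 1.0 against NT (SE 0.335, edgeR adjusted p = 0.153). With TPL in TAM cells JAK2 gave -0.43 (SE 0.33, edgeR adjusted p = 0.347) and JAK1 0.29 (SE 0.223, edgeR adjusted p = 0.351).

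STAT3, the transcription factor at the end of the cascade, was well expressed in every condition and its level relative to the library was higher with TPL. The libraries held 38.13 and 42.52 FPKM in NT against 65.73 and 53.97 in NT+TPL, and 53.40 and 50.81 in TAM against 68.46 and 74.49 in TAM+TPL. The order was TAM+TPL, NT+TPL, TAM, NT, and no neighbouring ranges overlapped. STAT3 rose with TPL in NT cells by a log2 fold change of 0.56 (SE 0.135, edgeR adjusted p = 0.0187). With GAPDH as the reference the same log2 fold change was 0.18 and the edgeR adjusted p 0.502, and the call was also lost without NT replicate 1 or 2 (edgeR adjusted p = 0.111 and 0.0659). In TAM cells the value was 0.41 (SE 0.134, edgeR adjusted p = 0.0551), which passed in 9 of 20 alternatives, among them DESeq2 (adjusted p = 0.00961) and edgeR without NT+TPL replicate 1 or 2 (0.0309 and 0.0311). TAM against NT gave a log2 fold change of 0.38 (SE 0.135, edgeR adjusted p = 0.176, DESeq2 adjusted p = 0.0393), which was -0.10 with GAPDH as the reference.

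SOCS3, the feedback inhibitor, was the 1 gene of the 9 to pass the test in all 5 comparisons. It had 12.81 and 14.40 FPKM in NT against 268.49 and 221.65 in TAM. After TPL its levels were 6.15 and 5.71 FPKM in NT cells against 14.01 and 18.24 in TAM cells. The TAM libraries stood far above all others and the NT+TPL libraries below all others, while the ranges of NT and TAM+TPL overlapped. SOCS3 was 18.2-fold higher in TAM than in NT cells (log2 fold change 4.19, SE 0.192, edgeR adjusted p = 9.13e-05). With TPL it was 15.7-fold lower in TAM cells, where it fell by 3.97 on the log2 scale (SE 0.19, edgeR adjusted p = 0.000234). In NT cells it fell by 1.2 (SE 0.184, edgeR adjusted p = 0.00347). With TPL in both, TAM cells still had more SOCS3 than NT cells, and it rose by a log2 fold change of 1.42 (SE 0.184, edgeR adjusted p = 0.00622). The fall with TPL was larger in TAM than in NT cells by 2.77 on the log2 scale (SE 0.254, edgeR adjusted p = 0.0348). That difference lost its call with GAPDH as the reference (0.0989) and without any 1 NT, TAM or TAM+TPL library (0.101 to 0.164, all edgeR adjusted p).

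SOCS3 made up 8.91 to 9.93% of the summed FPKM of the 9 genes in NT, 3.33 to 4.28% in NT+TPL, 59.2 to 63.1% in TAM and 6.79 to 8.29% in TAM+TPL. Relative to STAT3, which activates it, SOCS3 stood at 0.336 and 0.339 in NT against 0.0936 and 0.106 in NT+TPL, and 5.03 and 4.36 in TAM against 0.205 and 0.245 in TAM+TPL. By this ratio of levels, both TPL-treated conditions lay below NT without overlap.

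**Figure D3:**
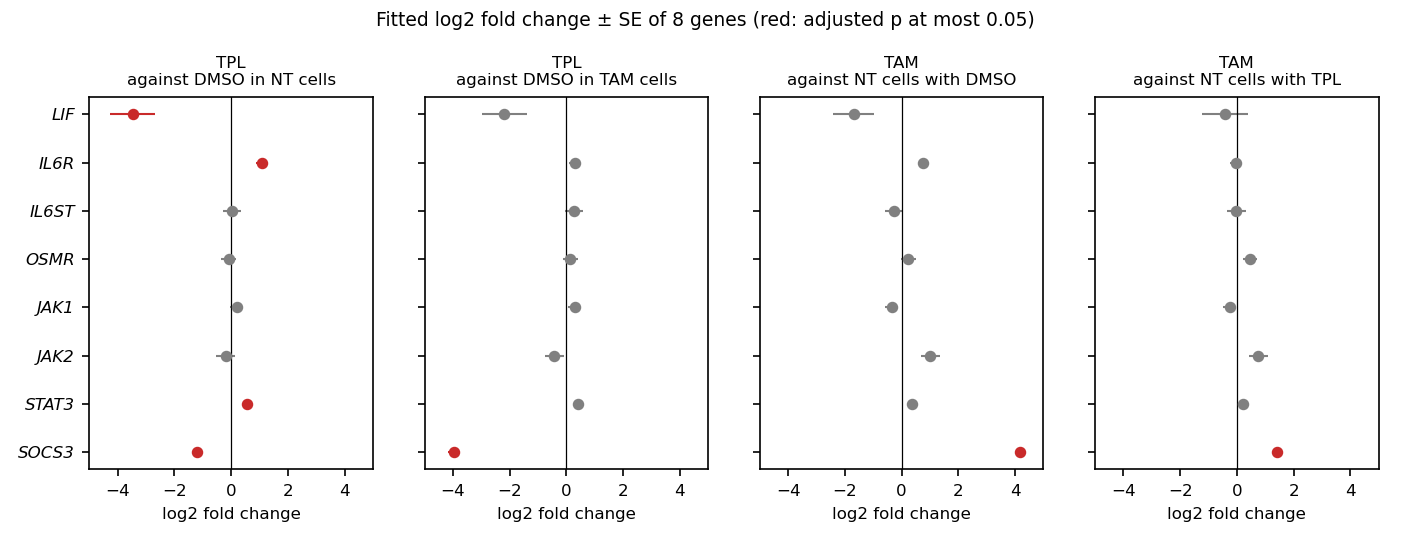
Fitted log2 fold change (horizontal axis) of LIF, the receptors, the kinases, STAT3 and SOCS3 in 4 comparisons, with the SE as bars and red for an adjusted p of at most 0.05. IL6 is not drawn, since its lower groups hold 1 count. SOCS3 is red in all 4 panels, from -3.97 with TPL in TAM cells to 4.19 in TAM against NT cells.

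Read against all genes, these counts were as follows. With TPL in NT cells 2 of the 8 genes other than IL6 rose (IL6R and STAT3) and 2 fell (LIF and SOCS3). This was at an adjusted p of at most 0.05, where 17.2% of all tested genes rose and 19.8% fell. The stricter rule was an adjusted p no higher than 0.001 together with a change of 1.2 or more on the log2 scale. By it edgeR called 0 of the 9 and 3.93% of all genes. DESeq2 called 1 of the 9 and 2506 of 23604 genes. An unadjusted edgeR p under 0.05 was found for 4 of the 9 and for 8108 of the 16948 genes tested. With TPL in TAM cells 0 of the 8 genes other than IL6 rose and 1 fell (SOCS3), where 14.3% of all genes rose and 18.6% fell, and SOCS3 passed the stricter rule, as 2.88% of genes did. In TAM against NT cells with DMSO 1 rose (SOCS3) and 0 fell, where 3.46% of genes rose and 3.39% fell, and SOCS3 passed the stricter rule with 0.655% of genes. With TPL in both, SOCS3 alone rose, where 2.83% of genes rose and 4.21% fell. Under the stricter rule edgeR called 0 of the 9 there and 0.596% of all genes. DESeq2 called 1 of the 9 and 666 of 23604 genes. For the difference of the TPL effects 1 of the 8 genes other than IL6 passed at 0.05, with 28 or 0.165% of all genes. By edgeR 0 passed the stricter rule, as for 0.0% of all genes. DESeq2 called 1 by that rule, with 144 of 23604 genes. The strict call of SOCS3 for TPL in TAM cells was lost without any 1 NT, TAM or TAM+TPL library, and that for TAM against NT without any 1 NT or TAM library. The TPL comparison in TAM cells shares its TAM libraries with TAM against NT, so their values are given side by side and not as separate evidence.

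The median log2 fold change over the 8 genes other than IL6 was -0.03 with TPL in NT cells, 0.20 with TPL in TAM cells, 0.31 in TAM against NT cells and 0.11 with TPL in both. The medians over all tested genes were 0.09, 0.05, -0.03 and -0.02.

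The genes whose levels ran most like those of IL6 over the 8 libraries were an accession-listed CLTA entry (Pearson r of log2(FPKM + 1) 0.997), RAB3A (0.986), HMGB3 (0.986), WWC1 (0.983) and an accession-listed TSKU entry (0.981), of 14135 genes compared. All were highest in both TAM libraries. SOCS3 itself had an r of 0.975 with IL6, and 8 genes had a higher one. Most like SOCS3 were FAM110C (0.994), the mitotic kinase TTK (0.989), the glucosylceramide synthase UGCG (0.984), the mitotic activator CDC20 (0.984) and the CDK1 inhibitory kinase PKMYT1 (0.983). FAM110C had 1.60 and 1.86 FPKM in NT against 31.44 and 26.55 in TAM, with 3.08 and 2.53 FPKM in the TAM+TPL libraries. These correlations describe 8 libraries in 4 groups and mostly the height of the TAM pair.

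Of the 13 other ligands and receptors of the IL6 family 10 were tested. Of the 9 other than OSM, 1 rose and 2 fell with TPL in NT cells, where 17.2% of all genes rose and 19.8% fell, and 0 rose and 1 fell in TAM cells, where 14.3% and 18.6% did. CLCF1, a ligand of the CNTF receptor, had 54.10 and 47.15 FPKM in NT against 3.78 and 1.34 in NT+TPL, and 4.58 and 4.39 in TAM against 1.88 and 0.48 in TAM+TPL. Like LIF, CLCF1 was highest in NT cells. It fell with TPL in NT cells (log2 fold change -4.34, SE 0.566, edgeR adjusted p = 0.00188) and in TAM cells (-2.03, SE 0.61, edgeR adjusted p = 0.0421). IL27RA fell by 1.94 in NT cells (SE 0.224, edgeR adjusted p = 0.0012), and IL11RA rose by 1.52 (SE 0.417, edgeR adjusted p = 0.0281). The ligand of OSMR, OSM, named here after its values were seen, had 0 counts in all 4 DMSO libraries, 14.0 and 8.83 in NT+TPL, and 21.0 and 3.83 in TAM+TPL. Against a floor of 3 counts per library the mean of OSM was at least 4.0-fold higher in NT cells and at least 4.42-fold higher in TAM cells with TPL. The latter rests on TAM+TPL replicate 1, as replicate 2 stood near the floor. A second OSM entry listed by accession also leaves its counts uncertain. OSM passed the filter through its TPL-treated libraries alone, so no test is given for it. In TAM against NT cells 0 rose and 3 fell (3.46% and 3.39% of all genes), and with TPL in both 0 rose and 1 fell (2.83% and 4.21%). The medians with TPL were 0.30 in NT and 0.55 in TAM cells with OSM at its bound, and 0.02 and 0.48 without OSM. The falls of CLCF1 and IL27RA with TPL in NT cells stayed past the test with any 1 library left out, while IL11RA in NT cells reached an edgeR adjusted p of 0.126 and CLCF1 in TAM cells of 0.17.

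The 8 other JAKs and STATs moved little. With TPL 2 rose and 0 fell in NT cells (17.2% and 19.8% of all genes), and 1 rose and 0 fell in TAM cells (14.3% and 18.6%). STAT2, which carries interferon signals, had 11.09 and 10.53 FPKM in NT and 19.99 and 14.41 in NT+TPL, and rose by 0.66 (SE 0.16, edgeR adjusted p = 0.019) and in TAM cells by 0.61 (SE 0.159, edgeR adjusted p = 0.0262). The kinase TYK2 rose in NT cells by 0.52 (SE 0.155, edgeR adjusted p = 0.0375). In both comparisons of TAM with NT cells 0 of the 8 passed by edgeR. In each, 2 had an unadjusted edgeR p under 0.05, as 3380 of 16948 genes did without TPL and 3608 with TPL. The medians with TPL were 0.04 and -0.16. With GAPDH as the reference 0 rose and 2 fell with TPL in NT cells, where 1358 of 16948 genes rose and 4381 fell. STAT2 and TYK2 were then no longer past the test. Leaving out 1 library took STAT2 to an edgeR adjusted p of up to 0.111 in NT cells (without NT replicate 1 or 2) and up to 0.139 in TAM cells, and TYK2 up to 0.206.

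Of the 15 other brakes on JAK-STAT signalling 3 rose and 6 fell with TPL in NT cells (17.2% and 19.8% of all genes). In TAM cells 0 rose and 4 fell (14.3% and 18.6%), and the medians were -0.52 in NT and -0.38 in TAM cells. Over all 16948 genes, 4381 fell in NT and 3056 in TAM cells with GAPDH as the reference. With upper quartile scaling 2625 and 2298 of them fell. SOCS2, an inhibitor of growth hormone signalling from the family of SOCS3, had 11.22 and 10.56 FPKM in NT and 2.10 and 1.60 in NT+TPL. It had 8.89 and 9.98 in TAM against 1.5 and 2.22 in TAM+TPL, and unlike SOCS3 it was not high in TAM cells. SOCS2 fell in NT cells (log2 fold change -2.54, SE 0.254, edgeR adjusted p = 0.000753) and in TAM cells (-2.39, SE 0.253, edgeR adjusted p = 0.00105). CISH fell with log2 fold changes of -1.93 and -1.79 (edgeR adjusted p = 0.0159 and 0.0193), and SOCS5 fell by 1.77 in NT cells (edgeR adjusted p = 0.0112). SOCS1, a direct JAK inhibitor, went the other way. It had 0.31 and 0.51 FPKM (3 and 5 counts) in NT and 2.38 and 2.30 FPKM (22 and 21 counts) in NT+TPL. TAM had 12 and 8 counts and TAM+TPL 21 and 17. SOCS1 rose by 2.47 in NT cells (SE 0.582, edgeR adjusted p = 0.0169). As its NT counts stood at or near the floor of 3, that p-value is given as a description. SOCS1 is 1 of the 3 counted as rising. The STAT inhibitors PIAS2 and PIAS4 fell in TAM cells with log2 fold changes of -1.13 and -0.54 (edgeR adjusted p = 0.0199 and 0.0452). SOCS2 passed in both cell states whichever library was left out. Leaving out 1 library took CISH to an edgeR adjusted p of up to 0.0645 in NT and 0.0795 in TAM cells, SOCS5 to 0.0526 (without NT+TPL replicate 2), SOCS1 up to 0.0908, PIAS2 up to 0.121 and PIAS4 up to 0.231. Over those fits 2 to 7 of the 15 fell with TPL in NT cells and 1 to 5 in TAM cells, with 9 and 4 when GAPDH was the reference and 3 and 3 with upper quartile scaling.

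Of the 5 pathway lists, the 14 textbook STAT3 target genes had the medians farthest from 0 with TPL. With TPL 1 rose and 11 fell in NT cells, where 17.2% of all genes rose and 19.8% fell, and 0 rose and 11 fell in TAM cells, where 14.3% and 18.6% did. The medians were -1.92 and -1.96. By the stricter rule 6 were called in NT cells and 5 in TAM cells, against 3.93% and 2.88% of all genes. Those strict calls became 0 in NT cells without any 1 NT, TAM or TAM+TPL library, and 2 or 4 without an NT+TPL library. In TAM cells they became 0 without any 1 NT, TAM or TAM+TPL library. BCL3, an NF-kB cofactor, was like SOCS3 highest in TAM, with 57.69 and 43.80 FPKM in NT against 3.14 and 1.63 in NT+TPL, and 191.33 and 176.07 in TAM against 13.83 and 9.07 in TAM+TPL. MYC had 532.07 and 622.70 FPKM in NT against 26.77 and 15.04 in NT+TPL, and 154.18 and 148.16 in TAM against 33.99 and 36.26 in TAM+TPL. Unlike SOCS3, BCL3 was lower in TAM+TPL than in NT without overlap, and MYC was lower in TAM than in NT cells.

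The log2 fold changes with TPL in NT cells were -4.80 for MYC (SE 0.27, edgeR adjusted p = 0.000195), -4.42 for BCL3 (SE 0.34, 0.000348), -4.17 for the AP-1 subunit FOS (SE 0.198, 0.000178), -4.09 for the kinase PIM1 (SE 0.347, 0.000466), -4.08 for the transcription factor CEBPD (SE 0.195, 0.000178) and -1.90 for the cyclin gene CCND1 (SE 0.193, 0.000796). In TAM cells they were -4.42 for FOS (SE 0.201, edgeR adjusted p = 0.000234), -4.05 for BCL3 (SE 0.309, 0.0004), -3.03 for CEBPD (SE 0.184, 0.000276), -2.76 for CEBPB (SE 0.274, 0.000827) and -1.70 for JUNB (SE 0.169, 0.000827). Several of these are also immediate early genes that other pathways switch on. With 1 library left out, 9 to 12 of the 14 fell in each cell state, and with GAPDH as the reference 12 fell in each. At an adjusted p of at most 0.05 the falls named here held whichever library was left out. In TAM against NT cells 5 of the 14 rose (BIRC5, VEGFA, BCL3, HIF1A and CEBPB) and 2 fell (MYC and PIM1), where 3.46% and 3.39% of all genes did, and with TPL in both 4 rose (BCL3, VEGFA, HIF1A and CEBPD) and 0 fell, where 2.83% and 4.21% did. With 1 library left out these became 2 to 5 that rose and 0 to 3 that fell without TPL, and 1 to 6 that rose with it. The growth factor VEGFA was the 1 gene called by the stricter rule in each, with log2 fold changes of 1.99 (SE 0.13, edgeR adjusted p = 0.000439) and 1.75 (SE 0.131, edgeR adjusted p = 0.000655). With a library left out the edgeR adjusted p of VEGFA reached up to 0.00859 and 0.0112, and its strict call held in the former comparison only without an NT+TPL library and in the latter in no such fit.

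Of the 8 genes of the NF-kB to LIN28B to IL6 switch 7 were tested, and 0 rose and 3 fell with TPL in each cell state, where 19.8% of all genes fell in NT and 18.6% in TAM cells. RELA, the NF-kB subunit that activates IL6, had 58.19 and 69.00 FPKM in NT against 39.64 and 24.70 in NT+TPL, and 67.11 and 61.41 in TAM against 30.68 and 24.93 in TAM+TPL. With TPL RELA fell in NT cells (log2 fold change -0.98, SE 0.224, edgeR adjusted p = 0.0152) and in TAM cells (-1.25, SE 0.226, edgeR adjusted p = 0.00716). HMGA2 fell in NT cells with a log2 fold change of -1.60 (edgeR adjusted p = 0.00809) and HRAS in TAM cells with -1.23 (edgeR adjusted p = 0.0454), the last with a second entry listed by accession. LIN28B, the RNA-binding protein of the switch, was listed at 0 in all libraries except TAM+TPL replicate 2, at 0.02 FPKM. Leaving out 1 library took RELA to an edgeR adjusted p of 0.0851 in NT cells (without NT replicate 2) and of 0.0607 in TAM cells (without TAM+TPL replicate 2) and HRAS in TAM cells up to 0.213. The list medians were -0.77 and -0.98. In TAM against NT cells 0 of the 7 passed by edgeR, with 0 at an unadjusted p under 0.05, beside 3380 of 16948 genes.

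**Figure D4:**
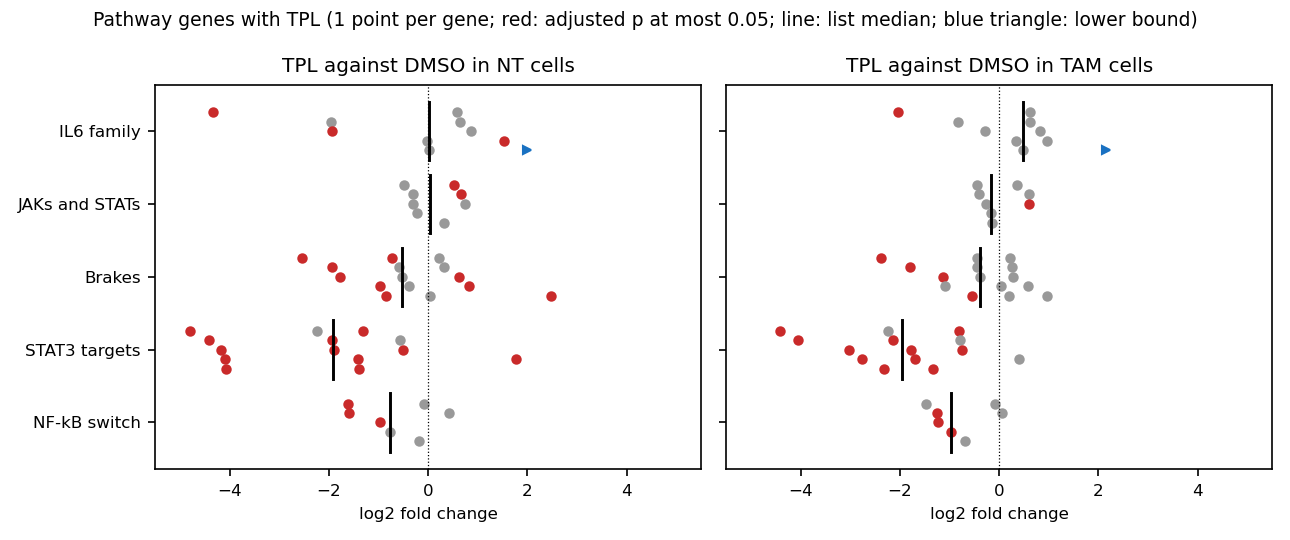
Fitted log2 fold change with TPL (horizontal axis) in NT cells (left) and TAM cells (right) for the tested genes of the 5 pathway lists, 1 point per gene, red for an adjusted p of at most 0.05, with a black line at each list's median. The blue triangle is OSM at its lower bound, which the line leaves out. The STAT3 targets lie mostly left of 0, with medians of -1.92 and -1.96, while the JAKs and STATs lie around 0.

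RNAPII peaks were described from 1 list per condition, each giving positions and no height. In the names of the peaks the lists of NT, NT+TPL and TAM+TPL carry a cutoff of 0.02, and that of TAM a q of 0.1, so widths set against TAM may also differ by that setting. The main TSS of 8 of the 9 genes lay in a peak in NT, of 5 in NT+TPL, of 6 in TAM and of 6 in TAM+TPL. Over all protein-coding genes the shares were 47.8%, 38.3%, 42.1% and 37.4%. STAT3, SOCS3, IL6ST, OSMR and JAK1 were occupied in all 4 lists.

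SOCS3 (chr17:76352859-76356158, minus strand, 3300 bases, hg19) differed most between the lists. Its peak was 460 bases wide in NT and 484 in NT+TPL, around the TSS and over 9.64% and 8.94% of the gene. In TAM it was 5644 bases wide (chr17:76351477-76357120) and in TAM+TPL 4793 (chr17:76352048-76356840), and both covered 100% of the gene. Thus the TAM+TPL peak spanned the whole of SOCS3, although the transcript level there (14.01 and 18.24 FPKM) overlapped that of NT, where the peak was narrow. Of 11056 TAM peaks 0.678% were wider than that of SOCS3, and of 8464 TAM+TPL peaks 0.331% were. Among occupied genes of at least 3 kb, 40 of 7945 lay wholly inside a peak in TAM and 13 of 7064 in TAM+TPL, beside 88 of 9023 in NT and 18 of 7218 in NT+TPL. The wide peaks also held the TSS of SOCS3-DT on the opposite strand. The peaks reached 142, 189, 962 and 682 bases upstream of the TSS in the 4 lists.

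IL6 (chr7:22766819-22771617, plus strand) had no peak near its TSS in any list, also not in TAM, where its transcript was found. The nearest listed peaks lay 94483 to 95291 bases away. LIF (chr22:30636442-30642748, minus strand) had a peak in NT alone, 1108 bases wide and holding the TSS of LIF-AS2 as well. That peak reached 114 bases upstream of the TSS. NT was also the condition with the highest LIF level.

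IL6R (chr1:154377819-154441926, plus strand) had a peak of 291 bases in NT and of 278 in TAM+TPL. In TAM a peak of 237 bases began 11 bases after the TSS, and in NT+TPL, where the transcript rose, none was listed within 1000 bases. JAK2 (chr9:4985272-5129948, plus strand) had peaks of 880 bases in NT and 785 in TAM, one ending 134 bases before the TSS in TAM+TPL, and none in NT+TPL. Peaks at STAT3 (chr17:40465342-40540460, minus strand) were 435 and 481 bases wide in NT cells without and with TPL, and 378 and 1357 in TAM cells, the widest being that of the condition with the highest STAT3 level. OSMR (chr5:38846114-38935743, plus strand) had 1113, 695, 1658 and 1053 bases, with the TSS of OSMR-DT inside each. For IL6ST (chr5:55230923-55290791, minus strand) the widths were 1280, 1083, 347 and 1067 bases, and for JAK1 (chr1:65298912-65432232, minus strand) they were 333, 297, 257 and 272. Median widths over all peaks were 632, 553, 406 and 455.5 bases in the same order. Whether the lists pool both ChIP replicates is not given in the sources used here, so these widths have no replicate check.

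**Figure D5:**
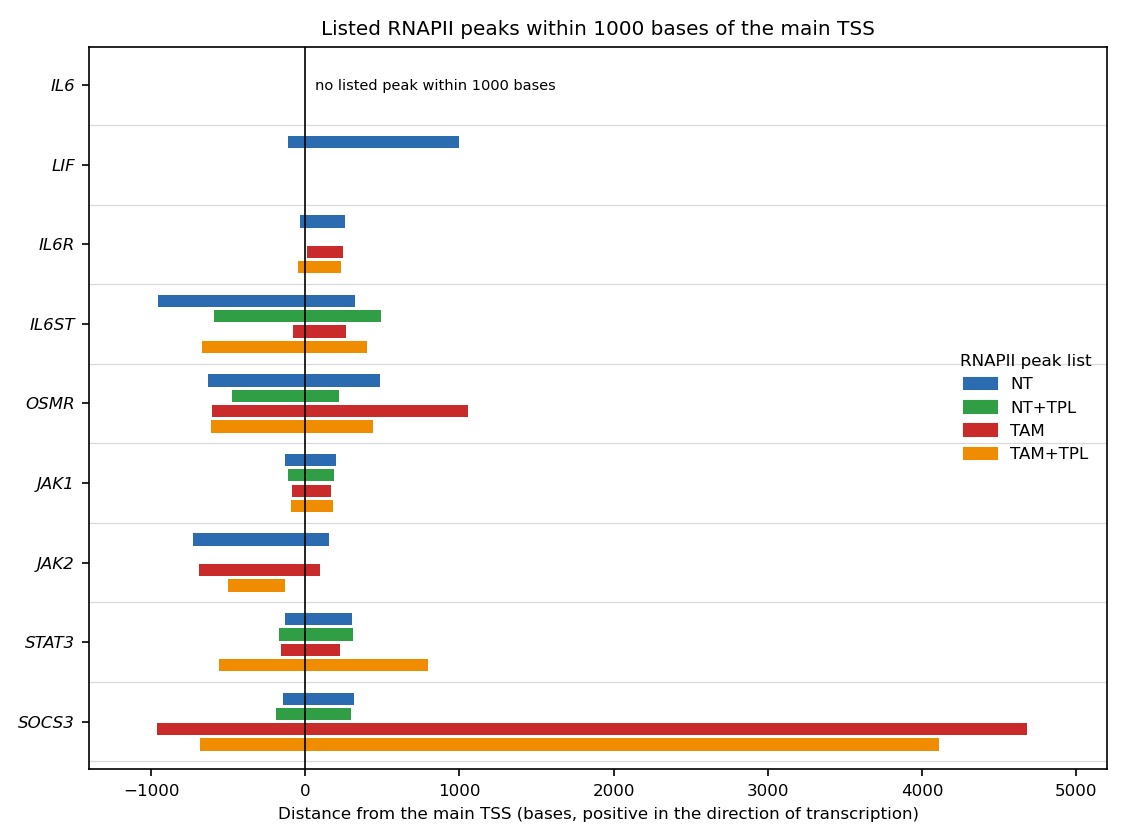
Listed RNAPII peaks within 1000 bases of the main TSS of each gene, drawn as bars from their start to their end in bases from the TSS (horizontal axis, positive in the direction of transcription), 1 row for each of the 4 lists. IL6 has none, LIF only that of NT, and the SOCS3 peaks of TAM and TAM+TPL run 4681 and 4110 bases downstream.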

How the data were processed

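MCF10A-Er-Src RNA was enriched for poly-A and sequenced by the authors on an Illumina HiSeq instrument, aligned to reference transcripts with Bowtie2 and quantified with RSEM. The expected counts (estimated counts per gene) were deposited by the authors without normalization and were rounded here. The FPKM values were deposited by the authors from the same RSEM estimates. Genes missing from a library were taken as 0. ChIP reads were aligned to hg19 with SOAP2 and peaks were called over input with MACS, per the study's methods. The submitters' processing notes name BWA, Bowtie2, RSEM, MACS 1.4.2 and HOMER. The peak lists hold positions and no signal, and depth behind a peak is unknown.

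The 8 libraries were grouped by the labels and held 7461309 to 8349448 counts. They were fitted together with edgeR 4.0.16 in R 4.3.3 (filterByExpr, TMM, quasi-likelihood, 4 residual degrees of freedom) over 16948 genes, with Benjamini-Hochberg adjustment over all of them. Calls needed an adjusted p no higher than 0.001 together with a change of 1.2 or more on the log2 scale, and a wider rule an adjusted p of at most 0.05, for which alone "rose" and "fell" are used. DESeq2 1.42.0, limma 3.58.1 (FPKM on the log2 scale with a pseudocount of 1 or 0.1), other scalings, filters and left-out libraries were alternatives. The script was tested on simulated data. Ratios of IL6 counts have exact 95% intervals. All members were named. Some list genes and promoter sequences are not reported here. From each list the text otherwise names up to 4 genes per TPL comparison past the wider rule with the largest change and a mean of at least 1 FPKM, and any past the stricter rule. The members and lists were chosen with earlier results of these data known. A TSS counted as occupied when inside a listed peak. Genes and TSSs came from GENCODE on hg19 and promoter bases from the same build. Of 23604 gene entries, 21077 were named by gene ID, 2384 by RefSeq accession, and 143 had no name.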

Additional observations from a re-analysis of the deposited data

Results flagged for a closer look

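The fall of SOCS3 with TPL was larger in TAM than in NT cells by 2.77 on the log2 scale (-2.77, SE 0.254, edgeR adjusted p = 0.0348), a difference between the effects in the 2 cell states. SOCS3 had 286 and 321 counts in NT against 130 and 119 in NT+TPL, and 6181 and 5091 in TAM against 289 and 410 in TAM+TPL, so the libraries of each state fell with TPL. Over 19 alternatives the adjusted p ran from 6.42e-22 (DESeq2) to 0.164 (edgeR without TAM+TPL replicate 1), and it stayed at or under 0.05 in 11.

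An IL6 entry listed by RefSeq accession had 4 counts (0.54 FPKM) in TAM+TPL replicate 1 and 0 in every other library. The main comparisons do not use this entry, and the setting with entries summed does. A count of 4 is close to the floor of 3 counts.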

How the results depend on the processing

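Of 833 fold changes of the 9 genes recomputed under the alternatives, 745 kept their direction and side of 0.05, 21 lost the call, 29 gained it and 38 changed sign. All that changed sign were past 0.05 under neither setting. Depth limits IL6, whose lower groups hold 1 count or 0. With 2 libraries a group, a call was often lost without 1 library, at times 1 outside the comparison. The filter of at least 10 counts in every library leaves out IL6 and LIF. The cause of each change was not tested.

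Genes called by the stricter rule became 1 (DESeq2), 2 (entries summed) and 4 (adjusted p of 0.05, no fold minimum) from 0 with TPL in NT cells. With TPL in TAM cells 1 became 0 with the replicate block, 2 with limma on log2(FPKM + 1), 2 at 0.05 (both with IL6), and 0 to 1 with a library left out. For TAM against NT cells 1 became 2 with the same limma fit and 0 to 1 with a library left out. With TPL in both, 0 became 1 with DESeq2, with 10 counts in every library, with entries summed and at 0.05. Of these genes only IL6 has a second entry, so summing left the counts of the others unchanged. For the difference of effects 0 became 1 with DESeq2, which called 144 of 23604 genes there, and 1 at 0.05. Counting only peaks of at least 500 bases, 4 and 2 genes were occupied in NT cells without and with TPL, and 3 and 4 in TAM cells.

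Changes of sign came from single settings and, with a library left out in turn, are given as the range over those fits. With TPL in NT cells they were IL6ST -0.39 (GAPDH), -0.002 (no filter) and -0.47 to 0.45 (left out), OSMR 0.13 (upper quartile) and -0.51 to 0.25, JAK1 -0.20 (GAPDH) and -0.10 to 0.44, and JAK2 0.04 (upper quartile) and -0.42 to 0.02. In TAM against NT cells they were IL6ST -0.60 to 0.17, and with GAPDH OSMR -0.25 and STAT3 -0.10. With TPL in both they were IL6R 0.02 (upper quartile), 0.01 and 0.02 (limma, pseudocount 1 and 0.1) and -0.23 to 0.24, IL6ST 0.01 (DESeq2), 0.01 (its size factors), 0.03 (upper quartile), 0.04 and 0.05 (limma) and -0.37 to 0.51, LIF -2.67 to 0.48, and JAK1 -0.47 to 0.08. For the difference of effects they were IL6ST -0.19 to 0.74, LIF -1.0 to 2.15, OSMR -0.11 to 0.66, JAK1 -0.15 to 0.39, and with GAPDH JAK2 0.02 and STAT3 0.11.

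GAPDH scaling moved the median of all genes to -0.26 and -0.07 with TPL in NT and TAM cells and to -0.50 and -0.25 for TAM against NT without and with TPL, from 0.09, 0.05, -0.03 and -0.02, and upper quartile scaling to 0.31 and 0.29 with TPL. Genes that rose and fell with TPL in NT cells went from 2919 and 3355 to 1358 and 4381 (GAPDH) or 4088 and 2625 (upper quartile), in TAM cells from 2431 and 3159 to 1626 and 3056 or 3613 and 2298, and for TAM against NT cells from 586 and 574 to 321 and 1687, and with TPL from 479 and 713 to 282 and 961 (GAPDH). All genes called by the stricter rule numbered 666, 488, 111 and 101 in the 4 comparisons, against 2506, 2252, 732 and 666 by DESeq2 and 0, 0, 37 and 30 with the replicate block.

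The replicate numbers did not pair the samples: same-numbered deviations correlated from -0.135 to 0.0501 over the 6 pairs of groups. With the replicate block 0 of the STAT3 targets were called by the stricter rule with TPL in either cell state, while 11 fell in NT and 12 in TAM cells at 0.05. The block took IL6 with TPL in TAM cells to an edgeR adjusted p of 0.0512 and the SOCS3 difference to 0.0893. With the NT+TPL numbers crossed, chosen after seeing the data, 0 of the 9 genes were called with TPL in NT cells.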
